A study of Mus musculus with 12 samples.

Results

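Multipotent progenitors (MPP, 3 arrays) were set against haematopoietic stem cells (HSC, 3 arrays), which together made up 6 of the 12 arrays of a mouse blood cell series. Both populations were sorted by flow cytometry from bone marrow of C57Bl/6 mice 10 to 12 weeks old, and both lacked lineage markers and carried cKit and Sca1. The MPP gate took cells without CD150 and with Flk2/Flt3, and the HSC gate took cells with CD150 and without Flk2/Flt3. The mice carried no allele and received no treatment that the labels name. The 3 sorts of each population were separate, but nothing says that they came from separate animals or whether animals were pooled. Per gene, the probe set with a single gene symbol and the highest mean over all 12 arrays was used, which gave 18193 genes. The comparison asks which genes, beyond markers of the blood lineages, differ between the stem cell gate and the progenitor gate next to it.

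Haematopoietic stem cells renew themselves for life and mostly rest outside the cell cycle. Multipotent progenitors still give rise to many blood lineages but have lost long-term self-renewal, and those with Flt3 lean towards lymphoid and granulocyte-monocyte fates. Both populations sense cytokines, microbial products and adhesion signals in the marrow through receptors that act on NF-kB, G proteins and small GTPases.

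Levels are log2 of the deposited array intensity, and differences are log2 fold changes of MPP over HSC with their standard errors from limma. Array medians were 14.7 to 15.2 intensity units in MPP and 15.1 to 15.6 in HSC. The lower quartile over genes lay at 3.28 (log2) in MPP and at 3.35 in HSC, and a mean under it may not lie above background. HSC arrays varied more than MPP arrays, with a median SD over genes of 0.14 in MPP and 0.20 in HSC. Single HSC arrays also stood apart. Xist, the RNA that silences one X chromosome in females, was at 11.90 to 12.15 in MPP and at 12.04, 2.45 and 2.59 on HSC replicates 1 to 3. The Y-linked gene Eif2s3y was at 2.31 to 2.49 in MPP and at 2.31, 7.46 and 8.47 in HSC, so HSC replicate 1 alone matched MPP in both genes. Kdm5d, also Y-linked, was at 2.33 to 2.44 in MPP and at 2.45, 6.02 and 5.68 in HSC. These are levels of female cells in MPP and HSC replicate 1, and of male cells in HSC replicates 2 and 3. The labels give no sex. Sex thus differed in part along with population, and its part in the differences below was not tested. On HSC replicate 2 the summed intensity of 19 mature neutrophil genes was 4489, against 724 and 589 on HSC replicates 1 and 3 and 375 to 524 in MPP. Counts are therefore also given against HSC replicate 1 alone, a smaller comparison in which 2.42% of all genes were higher and 1.86% lower. In sorted bulk samples, fewer cells of a type and less RNA per cell cannot be told apart.

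The genes behind the gate and its best known neighbours followed the labels. Flt3, the receptor that the MPP gate required, was at 10.10, 9.95 and 10.00 in MPP and at 6.34, 6.82 and 6.63 in HSC. Slamf1, which encodes CD150, was at 3.86, 3.53 and 3.77 in MPP and at 6.77, 6.67 and 7.05 in HSC. Neither is a finding, since the gates were set on these proteins. Dntt, the polymerase that adds nucleotides to antigen receptor joints, was at 11.98, 11.82 and 11.96 in MPP and at 5.12, 5.57 and 4.59 in HSC. Vwf, which encodes von Willebrand factor of platelets and endothelium, was at 4.39, 4.18 and 3.90 in MPP and at 8.72, 8.47 and 8.52 in HSC. In all 4 genes the arrays of the groups stood far apart, also with HSC replicate 1 alone.

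Of 18193 genes, 2058 were called at an adjusted p under 0.05 (11.3% of those tested). In MPP 1161 were higher (6.38%) and 897 were lower (4.93%). The higher genes thus made up 56.4% of the calls, but 44.4% after quantile normalisation and 46.8% after cyclic loess. A difference of at least 2-fold was also reached by 855 genes (4.7%), of which 465 were higher and 390 lower in MPP, and 148 reached 4-fold, 101 of them higher. The 3 MPP arrays did not overlap the 3 HSC arrays in 5425 genes (29.8%), among them 2036 of the 2058 called. The 13 lineage and quality lists, called lineage lists below, also hold immediate early, heat shock and sex-linked genes. They accounted for 131 of the calls, which left 1927 called genes outside them, 750 at 2-fold or more. The median change over all genes was -0.03, and that value is the background for the medians of the gene lists below.

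**Figure D1:**
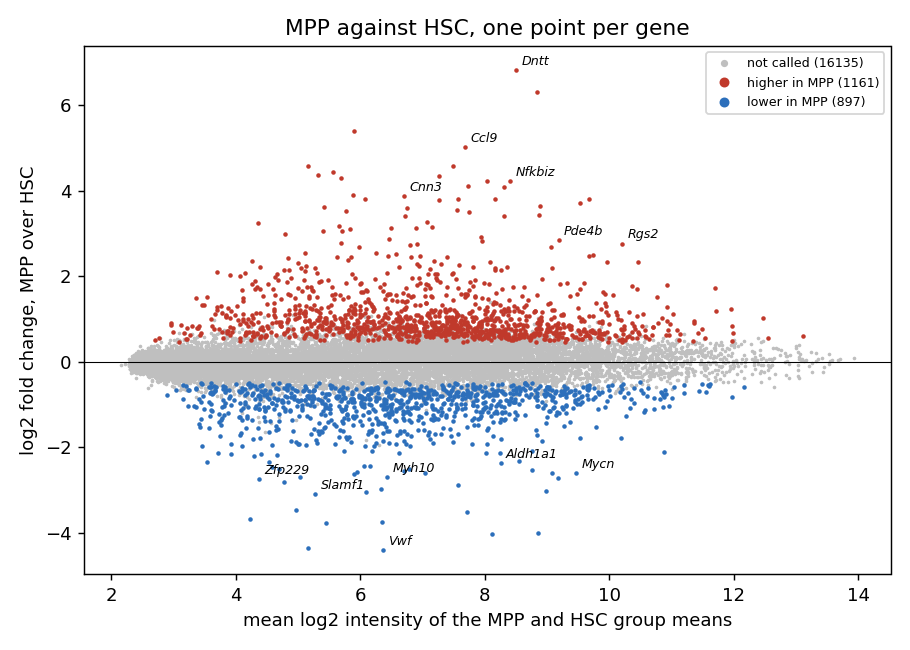
Log2 fold change of MPP over HSC (vertical) against the mean log2 intensity of the group means (horizontal), one point per gene, with called genes in red (1161 higher in MPP) and blue (897 lower in MPP). Called genes spread over most of the range of levels, and Dntt and Vwf lie at the upper and lower ends.

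The 12 largest rises were taken from called genes outside the lineage lists. Their arrays were required not to overlap between the groups, and both group means to lie at or above the lower quartile. Members of lineage lists were left out, such as Cxcl2 (4.58), Atf3 (4.29) and Nr4a1 (3.80) of the immediate early list. Ccl9, Nfkbiz and Socs3 headed the 12. Ccl9, a chemokine of myeloid cells, was at 10.25, 10.07 and 10.24 in MPP and at 5.26, 5.13 and 5.11 in HSC. Its difference of 5.02 ± 0.26 (32.4-fold) rested on HSC arrays that lay close together, but its next brightest probe set gave 0.78 (adjusted p = 0.0324). Nfkbiz, an inducible nuclear cofactor of NF-kB, was at 10.42, 10.59 and 10.54 in MPP and at 8.23, 5.74 and 4.92 in HSC. HSC replicate 1 was thus far closer to MPP than the other two were, and the difference of 4.23 ± 0.58 was 2.29 against that array alone. Socs3, which dampens signalling from cytokine receptors, was at 10.25, 10.02 and 10.18 in MPP and at 6.69, 5.78 and 5.30 in HSC (4.22 ± 0.26). Rel, which encodes the NF-kB subunit c-Rel, was at 7.22, 7.14 and 7.33 in MPP and at 3.88, 3.30 and 3.68 in HSC (3.61 ± 0.31). Tnfaip3 encodes A20, a ubiquitin-editing enzyme that restrains NF-kB. Its levels were 10.44, 10.65 and 10.67 in MPP and 7.91, 6.72 and 6.86 in HSC (3.42 ± 0.28), again with HSC replicate 1 nearest to MPP.

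Cnn3, a calponin that binds actin, was at 8.60, 8.71 and 8.60 in MPP and at 4.51, 5.12 and 4.64 in HSC, and its next brightest probe set gave 4.02 beside 3.88 ± 0.18. Cd244a encodes the receptor 2B4, whose ligand is CD48. It was at 8.29, 7.87 and 7.77 in MPP and at 5.01, 3.55 and 3.97 in HSC (3.80 ± 0.28). Bhlhe40, a repressor that feeds back on the circadian clock, was at 9.11, 9.47 and 9.42 in MPP and at 6.09, 5.85 and 5.41 in HSC (3.55 ± 0.22). Slc35d3, of the nucleotide sugar transporter family, was at 7.53, 7.36 and 7.75 in MPP and at 3.99, 4.44 and 3.60 in HSC (3.54 ± 0.20). Cdkn1a encodes the cyclin-dependent kinase inhibitor p21. It was at 9.34, 9.69 and 9.46 in MPP and at 6.90, 5.72 and 5.34 in HSC (3.51 ± 0.32), or 2.59 against HSC replicate 1 alone. Ankrd33b, an ankyrin repeat protein, was at 8.58, 8.75 and 8.79 in MPP and at 5.60, 5.004 and 5.69 in HSC (3.28 ± 0.18). Chdh, the mitochondrial choline dehydrogenase, was at 7.04, 7.52 and 7.20 in MPP and at 4.52, 3.90 and 3.79 in HSC (3.18 ± 0.37). Adjusted p over the 12 genes ran between 2.88e-09 and 0.000163, and all 12 stayed called against HSC replicate 1 alone. HSC replicate 1 was the highest HSC array in 9 of the 12. On their next brightest probe sets Cd244a (0.16, adjusted p = 0.66) and Ankrd33b (0.04, adjusted p = 0.945) were not called.

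The 12 largest falls by the same rule held cytoskeleton genes, a transcription factor and genes of vesicle traffic. Myh10, a heavy chain of non-muscle myosin, was at 4.56, 5.32 and 5.35 in MPP and at 7.83, 7.44 and 8.08 in HSC (-2.70 ± 0.40). Nckap1, a subunit of the WAVE complex that drives actin branching, was at 4.49, 4.73 and 4.55 in MPP and at 7.19, 6.81 and 7.64 in HSC (-2.62 ± 0.33). Tuba8, an alpha tubulin, was at 4.92, 4.68 and 5.21 in MPP and at 7.72, 7.14 and 7.31 in HSC, and its change of -2.45 ± 0.21 was -2.47 on the next brightest probe set. These 3 genes belong to the scaffold of the cell. Every MPP array lay below every HSC array, as the rule for the list required. Rab27b, a small GTPase of granule secretion, was at 3.52, 3.56 and 3.98 in MPP and at 6.39, 5.67 and 7.10 in HSC (-2.70 ± 0.33). Tnfaip2, a protein induced by tumour necrosis factor, was at 7.76, 7.31 and 7.41 in MPP and at 10.05, 9.97 and 10.08 in HSC (-2.54 ± 0.27), opposite in direction to Tnfaip3.

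Mycn, a transcription factor of the Myc family, was abundant in both groups, at 8.18, 8.12 and 8.19 in MPP and at 10.44, 10.88 and 11.01 in HSC (-2.61 ± 0.22). Slfn2, a member of the Schlafen family linked to immune cell quiescence in mice, was at 5.64, 6.00 and 5.61 in MPP and at 8.86, 8.36 and 7.82 in HSC (-2.60 ± 0.24). Lhfpl2, a membrane protein with several spans, was at 4.46, 4.71 and 4.77 in MPP and at 7.03, 7.22 and 7.48 in HSC (-2.59 ± 0.18). In each of them the lowest HSC array stood above the highest MPP array, again as the rule required. Aldh1a1, which oxidises retinaldehyde to retinoic acid, was at 7.13, 7.02 and 7.06 in MPP and at 9.87, 9.17 and 9.29 in HSC (-2.38 ± 0.27). Kazald1, a secreted protein related to growth factor binding proteins, was at 3.44, 3.60 and 3.70 in MPP and at 6.11, 5.97 and 5.19 in HSC (-2.18 ± 0.21). The remaining 2 of the 12, Zfp719 and Zfp763, are zinc finger genes and are described with their family. Adjusted p over the 12 ran between 1.42e-07 and 0.000316, and all 12 stayed called with HSC replicate 1 alone. Of 8 with another probe set, 4 were called the same way on it, and Myh10 (-0.46), Mycn (-0.04), Lhfpl2 (-0.56) and Zfp763 (0.03) were not.

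**Figure D2:**
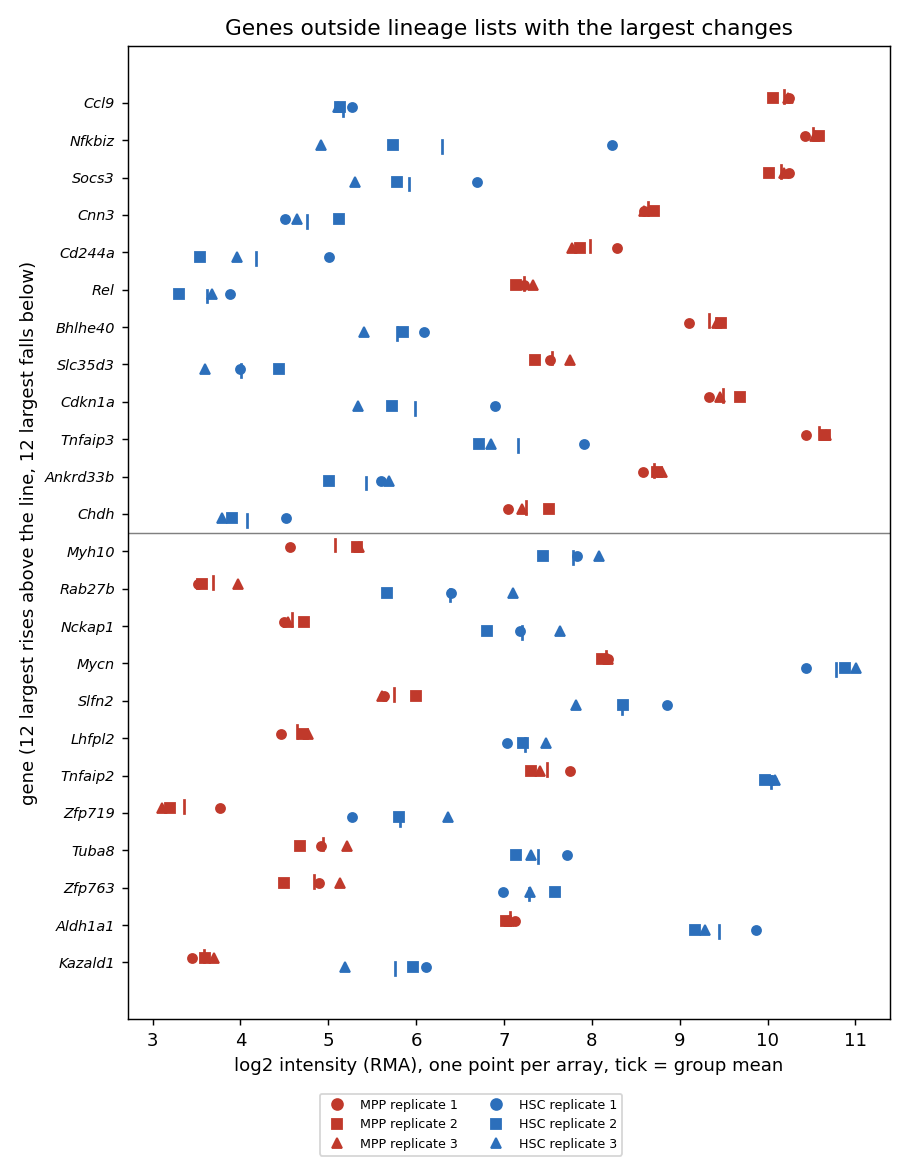
Log2 intensity on each array (horizontal) of the 12 largest rises and the 12 largest falls outside the lineage lists (vertical), with MPP in red, HSC in blue, marker shape for the replicate and a tick for the group mean. The groups overlap in none of the 24 genes because the selection required it. HSC replicate 1 (blue circle) is the HSC array nearest to MPP in 9 of the 12 rises, among them Nfkbiz, Socs3, Cdkn1a and Tnfaip3.

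The start regions of 2 of the 12 rises and 2 of the 12 falls above are shown because these genes are among the largest changes of the 12 in each direction. The sequences are from the RefSeq promoter table (build GRCm38.p6). Each runs over 300 bases in the direction of the gene, from 250 before to 50 after its start. They were searched on both strands for NF-kB (GGG, then 2 bases of any kind, then TTTCC), AP-1 (TGANTCA), CRE (TGACGTCA), GATA factor (AGATAA), PU.1 (GAGGAAG) and TATA box (TATAAA) letters, and matches are in capitals. Letters of TATA can overlap each other on opposite strands. The regions are Ccl9 (chr11:83578587-83578886, minus strand), Socs3 (chr11:117969317-117969616, minus strand), Myh10 (chr11:68691665-68691964, plus strand) and Mycn (chr12:12941787-12942086, minus strand).
Ccl9: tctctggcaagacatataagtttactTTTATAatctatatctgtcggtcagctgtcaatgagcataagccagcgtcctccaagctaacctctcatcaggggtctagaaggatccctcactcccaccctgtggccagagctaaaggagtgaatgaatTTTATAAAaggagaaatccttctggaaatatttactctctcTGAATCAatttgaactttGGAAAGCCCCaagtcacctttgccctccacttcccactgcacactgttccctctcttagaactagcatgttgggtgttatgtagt
Socs3: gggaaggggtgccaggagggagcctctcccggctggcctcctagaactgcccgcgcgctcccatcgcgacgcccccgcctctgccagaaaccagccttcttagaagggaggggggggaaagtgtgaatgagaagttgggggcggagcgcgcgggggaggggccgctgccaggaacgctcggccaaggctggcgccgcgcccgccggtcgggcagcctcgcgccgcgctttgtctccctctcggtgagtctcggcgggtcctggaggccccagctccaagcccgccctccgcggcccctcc
Myh10: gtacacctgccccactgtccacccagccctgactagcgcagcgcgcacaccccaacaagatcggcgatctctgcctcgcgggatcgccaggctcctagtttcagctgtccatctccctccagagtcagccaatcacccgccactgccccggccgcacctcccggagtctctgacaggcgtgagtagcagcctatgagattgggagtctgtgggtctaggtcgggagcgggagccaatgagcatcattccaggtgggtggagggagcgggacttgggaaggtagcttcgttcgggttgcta
Mycn: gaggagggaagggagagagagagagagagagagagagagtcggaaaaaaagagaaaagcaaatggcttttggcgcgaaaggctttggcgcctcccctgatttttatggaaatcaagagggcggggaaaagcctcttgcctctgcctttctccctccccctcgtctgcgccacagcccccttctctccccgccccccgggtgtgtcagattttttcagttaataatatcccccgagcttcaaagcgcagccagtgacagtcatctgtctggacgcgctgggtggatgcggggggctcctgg
The Ccl9 region held NF-kB letters from position -35, AP-1 letters from -53, and TATA letters from -92, -94 and -224, counted from the start of the gene. The other regions held none of the 6 motifs. NF-kB letters were found in 1.95% of 512 start regions of genes at least 2-fold higher in MPP, in 1.69% of 414 of genes at least 2-fold lower, in 1.58% of 18109 of the measured genes and in 1.63% of all 32851 start regions. PU.1 letters were found in 20.1% of the regions of the higher genes, 13.04% of those of the lower genes, 13.5% of those of measured genes and 13.6% of all. AP-1 letters stood in 6.64%, 3.86%, 6.38% and 7.81% of these sets. GATA letters stood in 8.20%, 10.9%, 8.09% and 11.2%, CRE letters in 2.93%, 2.42%, 2.49% and 1.79%, and TATA letters in 8.79%, 9.90%, 9.77% and 13.6%. Some genes have several start regions, so regions are not independent, and a match of letters does not show that a factor binds.

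Signalling lists are given from ligands to receptors to the proteins inside the cell, and the counts of each list stand against 6.38% higher and 4.93% lower among all genes. Of 55 chemokine and interleukin ligands, 9 were higher in MPP (16.4%) and 1 was lower (1.82%), with a median change of -0.06, so most of the family was not called. Ccl3, a chemokine of inflamed myeloid cells, was at 8.85, 8.11 and 8.86 in MPP and at 3.38, 3.19 and 3.03 in HSC (5.41 ± 0.19, adjusted p = 1.27e-10). The HSC level of Ccl3 lay under the lower quartile, so the difference is no exact fold. The one lower ligand was Il4 (-1.04 ± 0.24), at 2.77 to 2.89 in MPP and 3.31 to 4.53 in HSC, where its MPP level lay under the lower quartile. Further higher ligands, named after their values were seen, were Ccl4 (2.39 ± 0.19), Il18 (1.92 ± 0.29), Il12a (1.42 ± 0.15) and Il15 (0.99 ± 0.18).

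Of 43 tumour necrosis factor (TNF) ligands, receptors and induced genes, 7 were higher (16.3%) and 2 lower (4.65%), at a median change of -0.02. Beside Tnfaip3, Cd27, a costimulatory receptor of lymphocytes and their progenitors, was at 8.63, 8.31 and 8.43 in MPP and at 6.16, 6.08 and 6.23 in HSC (2.30 ± 0.20). Beside Tnfaip2, the ligand gene Tnfsf9 was lower (-1.04 ± 0.27), a call (adjusted p = 0.021) that ended when HSC replicate 2 (0.108), HSC replicate 3 (0.0799), MPP replicate 1 (0.0697) or MPP replicate 2 (0.0921) was dropped. The count of 7 was 3 without HSC replicate 1 and 4 without MPP replicate 3. Of 38 Toll-like and interleukin-1 pathway genes, 6 were higher (15.8%) and 0 lower (median 0.02). Il1r1, the signalling receptor for interleukin-1, was at 8.34, 8.77 and 8.48 in MPP and at 6.24, 6.52 and 6.62 in HSC (2.07 ± 0.20), while its next brightest probe set gave -0.01. Il18rap, an accessory chain of the interleukin-18 receptor, had a difference of 1.40 ± 0.22 (adjusted p = 0.000596). Its next brightest probe set was not called (0.84, adjusted p = 0.146).

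Of 32 eicosanoid and lipid mediator genes, 5 were higher (15.6%) and 3 lower (9.38%), at a median change of -0.04. Without MPP replicate 1, 1 was lower. Ptgs2, the inducible cyclooxygenase that starts prostaglandin synthesis, was at 5.73, 5.82 and 6.38 in MPP and at 3.15, 2.43 and 2.60 in HSC (3.25 ± 0.20). Its HSC mean lay under the lower quartile, and its next brightest probe set was not called (0.31, adjusted p = 0.354). Lta4h, which makes the leukotriene B4, was higher by 1.22 ± 0.23, but lower on its next brightest probe set (-1.06, adjusted p = 0.0434). The phospholipase gene Pla2g4a (-1.20 ± 0.33) and the thromboxane synthase gene Tbxas1 (-0.78 ± 0.18) were lower. Leaving out any single MPP or HSC array ended the call of Pla2g4a (adjusted p between 0.055 and 0.0944), and leaving out MPP replicate 1 ended that of Tbxas1 (0.0515).

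Of 105 nucleotide, adhesion, protease-activated and orphan G protein-coupled receptors, 7 were higher (6.67%) and 5 lower (4.76%), near the shares among all genes, and the median change was -0.08. Without MPP replicate 2, 3 were lower. Adgrg3, an adhesion receptor of granulocytes, was at 10.03, 10.23 and 10.26 in MPP and at 8.01, 7.65 and 8.31 in HSC (2.18 ± 0.17). The receptor P2ry10 was higher by 1.70 ± 0.21. The adhesion receptors Adgrg2 (-1.41 ± 0.19) and Adgrl1 (-1.32 ± 0.26) were lower, and neither was called on its next brightest probe set (-0.20 and -0.39). The MPP mean of Adgrg2 lay under the lower quartile. Among 52 G protein subunits and RGS regulators, 5 were higher and 3 lower (median 0.00), and 3 were higher when HSC replicate 1 or any one MPP replicate was left out. Rgs2, which speeds the shut-off of G protein signals, was at 11.67, 11.51 and 11.59 in MPP and at 9.41, 8.60 and 8.47 in HSC (2.76 ± 0.25). Its relative Rgs1 was higher by 2.50 ± 0.31, and both were highest among the HSC arrays on replicate 1. The subunit genes Gng11 (-1.01 ± 0.22) and Gna11 (-0.88 ± 0.19) were lower. Gna11 was not called on its next brightest probe set (-0.06, adjusted p = 0.949).

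Of 46 genes for cyclases, phosphodiesterases and protein kinase A subunits, 1 was higher (2.17%) and 9 were lower (19.6%) in MPP, with a median of -0.17 beside -0.03 over all genes. Gucy1a1, a subunit of the nitric oxide receptor guanylate cyclase, was at 4.72, 5.02 and 4.9996 in MPP and at 6.84, 6.51 and 7.06 in HSC (-1.89 ± 0.17). Pde5a, which breaks down cyclic GMP, was at 5.07, 4.96 and 4.61 in MPP and at 6.43, 6.62 and 6.92 in HSC (-1.77 ± 0.21). These were the 2 largest falls of the list. Their arrays did not overlap between the groups, as in 2036 of all 2058 called genes. The one higher gene was Pde4b, which breaks down cyclic AMP, at 10.53, 10.72 and 10.57 in MPP and at 7.71, 7.70 and 7.89 in HSC (2.84 ± 0.19). Other lower members, named after their values were seen, were the cyclase Adcy6 (-1.25 ± 0.21), the phosphodiesterases Pde10a (-0.86 ± 0.18), Pde4d (-0.80 ± 0.23), Pde1b (-0.74 ± 0.18) and Pde3b (-0.49 ± 0.14), and the cyclic AMP sensor Rapgef3 (-0.84 ± 0.22). The 9 lower calls became 5 without HSC replicate 2, HSC replicate 3 or MPP replicate 2, 4 without MPP replicate 3, and 3 against HSC replicate 1 alone. On their next brightest probe sets Pde4b (0.92, adjusted p = 0.244) and Gucy1a1 (-0.63, adjusted p = 0.119) were not called.

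Of 67 axon guidance ligands and receptors, 3 were higher and 3 lower (median -0.08), and 1 was higher without HSC replicate 1 or MPP replicate 2. Plxnc1, a plexin receptor of blood cells, was at 8.80, 8.43 and 8.65 in MPP and at 10.38, 10.15 and 10.73 in HSC (-1.80 ± 0.26). Its ligand gene Sema7a was also lower (-1.48 ± 0.20), though its next brightest probe set gave 0.00. The plexin gene Plxnd1 (1.30 ± 0.20) and the semaphorin gene Sema4c (0.89 ± 0.25) were higher. The call of Sema4c was lost when HSC replicate 1 (adjusted p = 0.135), MPP replicate 2 (0.0691) or MPP replicate 3 (0.166) was dropped.

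In the nucleus, 5 of 44 nuclear receptors were higher (11.4%) and 1 lower (2.27%), with a median of 0.00. Nr4a1, an immediate early orphan receptor, was at 11.50, 11.61 and 11.60 in MPP and at 9.49, 7.09 and 6.73 in HSC (3.80 ± 0.49). Pgr, the progesterone receptor, was at 8.56, 8.52 and 8.28 in MPP and at 6.53, 4.60 and 4.84 in HSC (3.13 ± 0.36). HSC replicate 1 was nearest to MPP in both, and against it alone the differences were 2.08 and 1.92. The receptor Nr2c2 was lower (-0.69 ± 0.18), a call lost when HSC replicate 3 (adjusted p = 0.0998), MPP replicate 1 (0.102) or MPP replicate 2 (0.0819) was dropped. Its next brightest probe set was not called (-0.41). Of 21 circadian clock genes, 4 were higher (19.0%) and 0 lower (median 0.23), with 2 higher against HSC replicate 1 alone and 2 without HSC replicate 2 or MPP replicate 3. They were Bhlhe40, Nfil3 (1.28 ± 0.24), a repressor needed for several innate lymphoid cells, and, named after their values were seen, Nr1d2 (1.26 ± 0.30) and Per1 (1.05 ± 0.30). The HSC mean of Nfil3 lay under the lower quartile.

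Of 31 p53 target genes, 9 were higher in MPP (29.0%, beside 6.38% of all genes) and 0 lower, and the median was 0.34. Beside Cdkn1a, Plk2, a polo-like kinase, was at 7.08, 6.91 and 7.27 in MPP and at 4.62, 4.24 and 4.05 in HSC (2.78 ± 0.16), while its next brightest probe set gave -0.25. The other 7, named after their values were seen, were the phosphatase Dusp5 (2.69 ± 0.20), the growth inhibitor Btg2 (1.84 ± 0.29), the kinase Plk3 (1.62 ± 0.34), the cyclin-dependent kinase regulator Sertad1 (1.55 ± 0.15), the repair factor Xpc (1.55 ± 0.16), the death gene Pmaip1 (1.48 ± 0.21) and Perp (0.77 ± 0.21). The count was 8 to 10 when single arrays were left out and 8 with HSC replicate 1 alone, while the median was 0.19 without HSC replicate 1 and 0.21 after quantile normalisation. On the next brightest probe sets, which 17 of the genes have, 2 were higher and the median was 0.01. Several of these genes also respond to other signals. Dusp5 and Btg2 are also in the list of 34 immediate early and heat shock genes. That list had 20 higher (58.8%) and 1 lower (2.94%) members, beside 6.38% and 4.93% of all genes. Its summed intensity was 55609 to 58334 in MPP and 36579 to 39812 in HSC. Atf3, its stress-response member, was at 7.80, 7.94 and 7.76 in MPP and at 4.18, 3.30 and 3.13 in HSC (4.29 ± 0.25). Such genes respond to the handling of cells, whose part in these differences was not tested.

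Double-strand break and crosslink repair genes had 1 of 43 higher (2.33%) and 4 lower (9.30%), beside 6.38% and 4.93% of all genes (median -0.11). Fancf, of the Fanconi anaemia complex, was at 5.82, 5.49 and 5.55 in MPP and at 6.90, 7.04 and 7.23 in HSC (-1.43 ± 0.17). Chek2, a checkpoint kinase upstream of p53, was at 7.39, 7.67 and 7.57 in MPP and at 8.52, 8.72 and 8.65 in HSC (-1.09 ± 0.16). Xrcc6, which encodes the end-binding protein Ku70, was higher by 1.00 ± 0.20, with -0.14 on its next brightest probe set. Fancf was not called on its next brightest probe set (-0.31), and Chek2 had no other probe set. The 4 lower calls became 7 and 6 after quantile and loess normalisation and 2 without HSC replicate 3 or MPP replicate 2. Of 8 histone genes none was called by limma, with H1f2 at 0.84 (adjusted p = 0.141) and H1f10 at -0.47 (adjusted p = 0.0865), and H1f2 was called when the 6 MPP and HSC arrays were fitted without the others (adjusted p = 0.0459).

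Genes named Zfp, most of which encode zinc finger proteins that bind DNA and many of which carry a KRAB repressor domain that silences retroelements, formed the function list with the largest number of falls. Of 331 measured, 64 were lower in MPP (19.3%, beside 4.93% of all genes) and 8 were higher (2.42%, beside 6.38%). The median was -0.18, and 69.8% of the 331 had a change below 0, beside 54.2% of all genes. The medians of the 64 lower genes were 5.03, 5.07 and 5.06 on the MPP arrays and 6.07, 6.04 and 6.43 on the HSC arrays, so HSC replicate 3 was the highest. At least 2-fold was reached by 34 of the 64, beside 390 of all 897 lower genes. The arrays of 63 did not overlap between the groups, which held for 2036 of all 2058 called genes and so is not particular to this family. Zfp229 was at 3.14, 2.96 and 2.88 in MPP and at 5.27, 5.81 and 6.17 in HSC (-2.76 ± 0.21), its MPP mean being under the lower quartile. Zfp719 was at 3.77, 3.19 and 3.11 in MPP and at 5.27, 5.81 and 6.36 in HSC (-2.45 ± 0.25). Zfp763 was at 4.90, 4.49 and 5.13 in MPP and at 6.99, 7.59 and 7.30 in HSC (-2.45 ± 0.26). In these 3 genes HSC replicate 1 was the lowest HSC array, yet it stood above every MPP array.

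Further members were chosen after their values were seen. Zfp809, which in mice recruits silencing to retroviral primer binding sites, was at 5.87, 5.53 and 5.93 in MPP and at 7.70, 7.42 and 7.79 in HSC (-1.86 ± 0.21). Zfp445, which guards imprinted regions in mice, was at 8.59, 8.74 and 8.64 in MPP and at 9.50, 9.47 and 9.86 in HSC (-0.95 ± 0.20). Zfp874b (-1.92 ± 0.21), Zfp866 (-1.86 ± 0.23) and Zfp87 (-1.71 ± 0.19) were lower as well. Many of these genes lie in clusters, and the lower ones were spread over chromosomes, with 13 of 43 on chromosome 17, 10 of 83 on chromosome 7, 8 of 27 on chromosome 13, and 6 each of 23 on chromosome 8 and of 15 on chromosome 9. Among all measured genes of these 5 chromosomes, 4.40% to 5.41% were lower. The 8 higher members were led by Zfp36 (1.69 ± 0.36), which binds AU-rich messenger RNAs and is no C2H2 factor, and Zfp622 (1.18 ± 0.14), a factor of ribosome assembly.

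The count of 64 was 42, 42 and 39 without MPP replicates 1, 2 and 3, 44 to 58 without single HSC arrays, and 72 and 73 after quantile and loess normalisation. The 8 higher calls became 5 without MPP replicate 2 or 3. Against HSC replicate 1 alone it was 20 (beside 1.86% of all genes), and all 64 kept their sign. Similar zinc finger genes can share probe sequences, and of 31 lower genes with another probe set 24 were also negative on it and 4 were called there. Over the 169 Zfp genes with another probe set, 10 were lower and 4 higher on the next brightest one, beside 2.60% and 5.02% of genes overall.

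**Figure D3:**
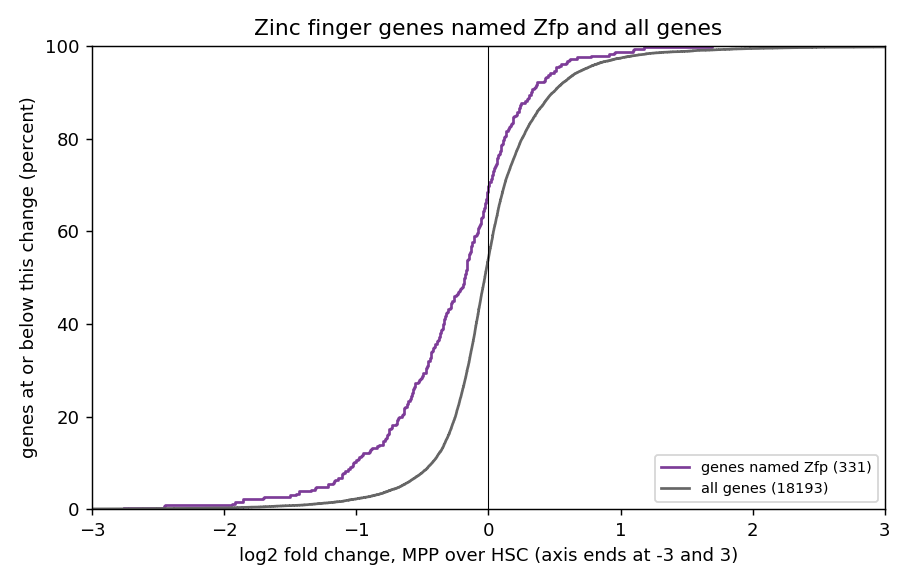
Share of genes (vertical, percent) at or below each log2 fold change of MPP over HSC (horizontal), for 331 genes named Zfp (purple) and all 18193 genes (grey). The purple curve lies left of the grey one, crossing a change of 0 at 69.8% of genes, where the grey one crosses at 54.2%.

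Genes of messenger RNA decay had 9 of 49 higher (18.4%) and 2 lower (4.08%), beside 6.38% and 4.93% of all genes (median 0.07, and -0.05 with 9 higher and 6 lower after cyclic loess, -0.04 with 8 and 6 after quantile normalisation). Zc3h12a, which encodes the ribonuclease Regnase-1, was at 6.43, 5.34 and 6.02 in MPP and at 3.93, 3.94 and 3.48 in HSC (2.15 ± 0.23), while its next brightest probe set gave -0.28. Btg2, which recruits deadenylases, was at 7.82, 7.86 and 7.97 in MPP and at 6.54, 6.25 and 5.34 in HSC. Zfp36, named above, was at 10.55, 10.26 and 10.33 in MPP and at 9.75, 8.55 and 7.77 in HSC, and was not called with HSC replicate 1 alone (0.63, adjusted p = 0.335). The 2 lower genes were those of small RNA silencing, Ago1 (-0.62 ± 0.15) and Tnrc6a (-0.80 ± 0.23). Ago1 was not called without MPP replicate 3 (adjusted p = 0.0627), and Tnrc6a was called without HSC replicate 2 and lost the call without any other single array (adjusted p between 0.078 and 0.128). Splicing factors had 4 of 85 higher and 1 lower (median 0.05), with 0 at 2-fold, and 2 higher and 4 lower after quantile (median -0.05) and loess (-0.03) normalisation. The 4 higher splicing calls became 2 without HSC replicate 2 or MPP replicate 1 and 1 without MPP replicate 3. Rbm22 (0.88 ± 0.20) and Snrpb2 (0.74 ± 0.16) were higher and Rbm25 (-0.84 ± 0.22) was lower. Neither Snrpb2 (0.44) nor Rbm25 (-0.45) was called on its next brightest probe set. Leaving out MPP replicate 3 ended the calls of Rbm22 (adjusted p = 0.0594) and Rbm25 (0.077), and HSC replicate 1 (0.0849), HSC replicate 2 (0.0662) or MPP replicate 1 (0.0675) that of Rbm25. Aminoacyl-tRNA synthetases and serine synthesis genes had 3 of 28 higher and 0 lower (median 0.11), among them Phgdh (0.69 ± 0.15) and Shmt2 (0.75 ± 0.20), 2 enzymes of serine and glycine metabolism. Dropping HSC replicate 1 (adjusted p = 0.0531), HSC replicate 2 (0.0868), MPP replicate 1 (0.085) or MPP replicate 3 (0.0901) ended the call of Shmt2. The 3 higher calls became 1 in each of these cases, and the median was -0.01 after quantile normalisation.

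Endoplasmic reticulum stress and chaperone genes had 8 of 43 higher (18.6%) and 2 lower (4.65%), beside 6.38% and 4.93% of all genes. The median was 0.24, but 0.12 after quantile and 0.14 after loess normalisation and 0.09 against HSC replicate 1 alone. Ppp1r15a, which reverses the stress block on translation, was at 9.57, 9.24 and 9.69 in MPP and at 8.51, 7.52 and 7.26 in HSC (1.74 ± 0.26). Herpud1, of the degradation pathway for misfolded proteins, was higher by 1.09 ± 0.23, but not called on its next brightest probe set (0.49). Sel1l, of the same pathway, fell by 0.68 on the log2 scale, with 0.08 on its next brightest probe set and no call without MPP replicate 3 (adjusted p = 0.062). Chac1, a stress-induced enzyme of glutathione breakdown, changed by -0.51 ± 0.14, a call lost when HSC replicate 1 (adjusted p = 0.114), HSC replicate 2 (0.0633), MPP replicate 1 (0.0799) or MPP replicate 2 (0.128) was dropped. The 2 lower calls became 4 after quantile and loess normalisation. Against HSC replicate 1 alone, 1 gene of this list was higher and 0 lower.

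Among 56 lysosome and autophagy genes, 15 were higher in MPP (26.8%, beside 6.38% of all genes) and 0 lower, and the median was 0.28. Sqstm1, the autophagy receptor p62, was at 8.47, 8.84 and 8.79 in MPP and at 6.95, 6.76 and 7.05 in HSC (1.77 ± 0.21). Ctss, a lysosomal protease of antigen-presenting cells, was at 10.27, 10.16 and 9.98 in MPP and at 7.82, 9.15 and 8.80 in HSC (1.55 ± 0.29). Every HSC array was below every MPP array in both, and arrays did not overlap in 2036 of all 2058 called genes. The next brightest probe set of Sqstm1 was not called (0.23, adjusted p = 0.448). Members named after their values were seen were the ubiquitin-like Map1lc3a (1.15 ± 0.24) and Gabarapl2 (0.92 ± 0.18), the cholesterol exporter Npc1 (1.13 ± 0.31), the cathepsins Ctsz (0.88 ± 0.20), Ctsl (0.81 ± 0.21) and Ctsa (0.68 ± 0.18), and the autophagy regulator Uvrag (0.85 ± 0.17). The 15 calls became 10 after quantile normalisation and 11 after loess, 6 without HSC replicate 2, 7 without MPP replicate 2 or 3, and 2 against HSC replicate 1 alone, while the median stayed between 0.20 and 0.32 in all of these. On the next brightest probe sets, which 39 of the genes have, 5 were higher and the median was 0.26.

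Fatty acid and triglyceride genes had 2 of 56 higher (3.57%) and 5 lower (8.93%), beside 6.38% and 4.93% of all genes, with a median of 0.00, and 3 lower without HSC replicate 1, HSC replicate 3 or MPP replicate 3. Lpl, the lipoprotein lipase, was at 5.03, 4.43 and 4.43 in MPP and at 6.06, 6.48 and 7.16 in HSC (-1.93 ± 0.31). The fatty acid elongase gene Elovl7 was lower (-1.64 ± 0.20), and neither it (-0.42) nor Lpl (-0.13) was called on the next brightest probe set. Agpat2, of glycerolipid synthesis, was higher (0.85 ± 0.17), as was the acyl-CoA dehydrogenase gene Acads (0.78 ± 0.20), whose call was lost when HSC replicate 1 (adjusted p = 0.0594), HSC replicate 3 (0.0504), MPP replicate 1 (0.0576) or MPP replicate 3 (0.0808) was dropped, and after quantile normalisation (0.0631). The 5 lower calls became 9 after quantile and loess normalisation. Nucleotide synthesis and salvage genes had 7 of 47 higher and 5 lower (median -0.01). Adssl1 makes the precursor of adenosine monophosphate and was at 9.08, 9.05 and 9.22 in MPP and at 7.54, 7.36 and 7.37 in HSC (1.69 ± 0.19). Ada, adenosine deaminase, was higher by 0.85 ± 0.21, not without MPP replicate 3 (adjusted p = 0.0594). Gda, guanine deaminase, was at 4.89, 4.70 and 4.75 in MPP and at 6.56, 6.20 and 6.88 in HSC (-1.77 ± 0.32), and Ampd3, a deaminase of adenosine monophosphate, fell by 1.10 on the log2 scale. The 7 higher calls became 3 without HSC replicate 2 or MPP replicate 2, 4 without HSC replicate 3 or MPP replicate 1, and 1 without MPP replicate 3, and 4 after quantile and loess normalisation.

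Of 334 solute carriers 18 were higher and 12 lower (median -0.05), close to the shares of all genes, and 7 were lower without MPP replicate 1 or 2. Slc29a1, an equilibrative nucleoside transporter, was higher by 1.61 ± 0.21, and Slc9a9, a sodium-proton exchanger of endosomes, by 1.86 ± 0.19, with -0.03 on its next brightest probe set. Slc14a1, a urea transporter, was at 6.65, 6.43 and 6.70 in MPP and at 8.23, 8.07 and 8.69 in HSC (-1.73 ± 0.22). The amino acid transporter gene Slc38a5 fell by 1.60 on the log2 scale. Of 177 ion channel genes 9 were higher (5.08%) and 4 lower (2.26%), beside 6.38% and 4.93% of all genes (median -0.04). The higher count was 5 without HSC replicate 2 or MPP replicate 1 and 4 without MPP replicate 3. Tandem-pore potassium channels went in opposite directions. Kcnk12 was at 6.93, 6.73 and 7.06 in MPP and at 5.22, 4.89 and 5.12 in HSC (1.83 ± 0.20), and Kcnk5 was at 5.87, 5.30 and 5.47 in MPP and at 7.76, 7.59 and 7.73 in HSC (-2.15 ± 0.17, with 0.11 on its next brightest probe set). The potassium channel gene Kcnj5 was lower (-1.34 ± 0.18) with an MPP mean of 2.77, under the lower quartile. Kcnq5, another, was higher by 0.95 ± 0.25, a call lost when HSC replicate 2 (adjusted p = 0.113), MPP replicate 1 (0.0999) or MPP replicate 3 (0.113) was dropped. Neither Kcnj5 (-0.17) nor Kcnq5 (0.35) was called on its next brightest probe set.

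Glutathione S-transferase, aldehyde dehydrogenase and cytochrome P450 genes process reactive aldehydes and foreign compounds. Of 138 such genes 5 were higher and 5 lower (3.62% each), beside 6.38% and 4.93% of all genes (median -0.04). The higher count was 3 without HSC replicate 2 or MPP replicate 3. Beside Aldh1a1, the sulfotransferase gene Sult1a1 was lower (-1.94 ± 0.22). Mgst1, a membrane glutathione transferase, was higher by 1.56 ± 0.23, with -0.24 on its next brightest probe set, and the mitochondrial Aldh1b1 by 0.97 ± 0.13. Of 114 enzymes that build the sugar chains of the cell surface, 8 were higher (7.02%) and 7 lower (6.14%), at a median of -0.05. The lower count was 4 without HSC replicate 3 or MPP replicate 3. B3gnt5, which starts lacto-series glycolipids, was at 8.10, 8.26 and 8.26 in MPP and at 6.33, 6.33 and 6.38 in HSC (1.86 ± 0.22). B4galnt1, of ganglioside synthesis, was higher by 1.53 ± 0.18 but not on its next brightest probe set (0.04). St8sia6, a sialyltransferase, was at 3.20, 3.29 and 3.06 in MPP and at 4.65, 5.17 and 6.37 in HSC (-2.22 ± 0.36), its MPP mean being under the lower quartile. Extl2, of heparan sulfate synthesis, fell by 1.41 on the log2 scale, with no call on its next brightest probe set (-0.49). The HSC arrays of St8sia6 stood apart from each other, with replicate 3 the highest.

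Cytoskeleton genes had 9 of 95 higher (9.47%) and 11 lower (11.6%), beside 6.38% and 4.93% of all genes (median -0.01). The lower count was 7 without HSC replicate 2 or MPP replicate 3. Cnn3 led the higher genes and Myh10 and Tuba8 the lower ones. Myl10, a myosin light chain, was at 7.44, 7.002 and 7.28 in MPP and at 5.59, 3.87 and 3.10 in HSC (3.05 ± 0.42), or 1.66 against HSC replicate 1 alone. Annexins and S100 proteins, which bind calcium, had 3 of 24 higher and 1 lower (median -0.09). Anxa3 was at 6.01, 6.14 and 6.28 in MPP and at 3.53, 4.28 and 4.03 in HSC (2.20 ± 0.25), Anxa6 was higher by 1.59 ± 0.19, and S100a1 was lower (-0.85 ± 0.19). On their next brightest probe sets Anxa6 (0.55, adjusted p = 0.0638) and S100a1 (-0.23, adjusted p = 0.536) were not called.

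Of 118 adhesion and junction genes 11 were higher and 11 lower (9.32% each), beside 6.38% and 4.93% of all genes (median -0.05). Cd48, the ligand of 2B4, was at 7.45, 7.52 and 7.58 in MPP and at 5.26, 4.53 and 5.17 in HSC (2.53 ± 0.27), so receptor and ligand of this pair were both higher in MPP. Cd34, a sialomucin, was at 11.68, 11.91 and 11.89 in MPP and at 10.12, 9.98 and 10.02 in HSC (1.79 ± 0.18). Itga2b and Itgb3 encode the 2 chains of the fibrinogen receptor of platelets. Itga2b was at 7.88, 7.70 and 7.89 in MPP and at 10.63, 10.45 and 10.53 in HSC (-2.72 ± 0.18), and Itgb3 at 5.32, 4.996 and 6.26 in MPP and at 8.58, 8.10 and 7.43 in HSC (-2.51 ± 0.30). Itgb3 was not called on its next brightest probe set (-0.38). The 11 higher calls became 7 without HSC replicate 2, HSC replicate 3 or MPP replicate 1 and 5 without MPP replicate 3.

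Of 154 extracellular matrix and protease genes 2 were higher (1.30%) and 6 lower (3.90%), beside 6.38% and 4.93% of all genes (median -0.08). The lower count was 3 without HSC replicate 2 or MPP replicate 3. Thbs1, the matrix protein thrombospondin, was at 6.18, 6.14 and 6.53 in MPP and at 3.74, 3.19 and 2.94 in HSC (2.99 ± 0.21), its HSC mean being under the lower quartile. Thbs1 is also a platelet granule gene. Mmp2, a gelatinase, was at 8.63, 8.60 and 8.30 in MPP and at 6.71, 7.05 and 7.04 in HSC (1.57 ± 0.15). Mmp14, the membrane protease that activates pro-Mmp2, was at 3.78, 4.08 and 3.83 in MPP and at 5.20, 5.68 and 5.56 in HSC (-1.58 ± 0.17), so enzyme and activator differed in opposite directions. Adamts3, a procollagen protease, fell by 1.07 on the log2 scale. Thbs1 (0.41), Mmp14 (-0.28) and Adamts3 (-0.03) were not called on their next brightest probe sets. Complement, coagulation and serpin genes had 5 of 78 higher (6.41%) and 3 lower (3.85%), near the shares of all genes (median -0.10). The lower count was 1 without HSC replicate 1, HSC replicate 2, MPP replicate 1 or MPP replicate 2. The serpin gene Serpini1 (1.56 ± 0.28) and the clot-stabilising F13a1 (1.55 ± 0.32) were higher. Clotting factor gene F10 changed by -1.30 ± 0.36 and the complement regulator gene Cd55, whose MPP mean lay under the lower quartile, by -0.94 ± 0.25. Both calls ended without HSC replicate 1 (adjusted p = 0.123 and 0.0948), HSC replicate 2 (0.142 and 0.0644), MPP replicate 1 (0.0663 and 0.077) or MPP replicate 2 (0.0828 and 0.1), that of F10 also without MPP replicate 3 (0.102). F10 was not called on its next brightest probe set (-0.19).

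**Figure D4:**
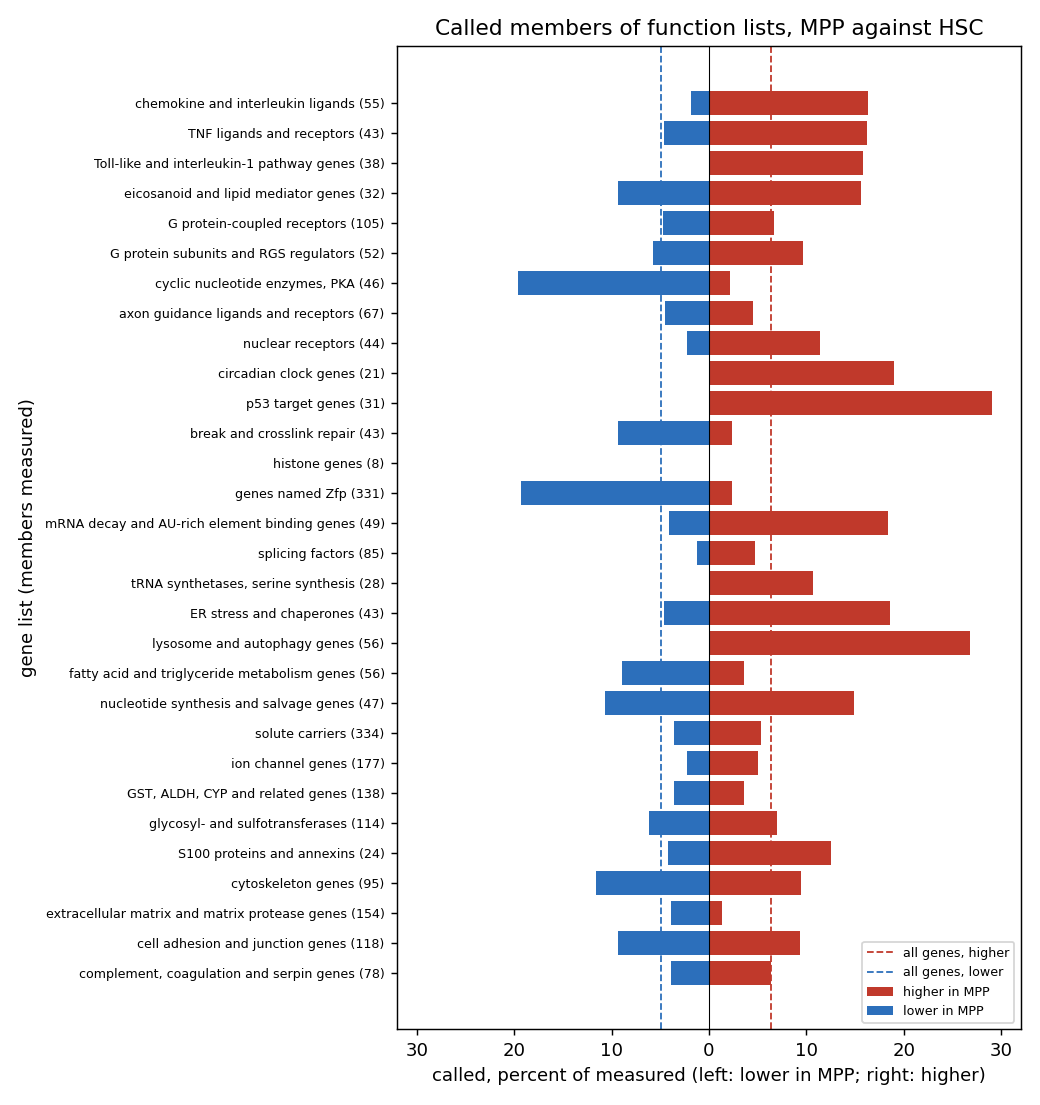
Percent of the measured members of 30 gene lists (vertical, number measured in brackets) that were called higher in MPP (red, right) or lower in MPP (blue, left), with dashed lines at 6.38% and 4.93% for all genes. The p53 target and lysosome and autophagy bars reach 29.0% and 26.8% on the right, and the cyclic nucleotide and Zfp bars 19.6% and 19.3% on the left.

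Lineage marker lists are given beside 6.38% higher and 4.93% lower among all genes. Of 28 lymphoid priming genes 13 were higher and 1 lower, and of 26 granulocyte-monocyte genes 16 were higher and 0 lower. Of 34 HSC-associated genes 1 was higher and 25 lower, of 32 megakaryocyte genes 1 and 16, and of 33 erythroid genes 1 and 20. Of 23 T cell genes 4 were higher and 1 lower, of 20 macrophage genes 3 and 1, of 20 stroma and endothelium genes 2 and 3, of 19 mature neutrophil genes 1 and 2, of 18 B cell genes 2 and 0, and of 16 mast cell, basophil and eosinophil genes 0 and 0. The lower count was 5 for macrophage genes without HSC replicate 1, and for neutrophil genes 6 without HSC replicate 3 and 0 without MPP replicate 3. Summed macrophage intensity was 894 to 983 in MPP and 1805 to 2338 in HSC, without overlap. Much of the HSC sums came from Apoe, the 1 lower member of that list. Apoe was at 7.86, 7.92 and 7.52 in MPP and at 10.52, 10.52 and 10.10 in HSC (-2.62 ± 0.30). The gap between the sums therefore does not describe the list as a whole, in which 3 members were higher in MPP. Summed B cell intensity was 1404 to 2075 in MPP and 340, 889 and 338 in HSC. Ighm, the immunoglobulin mu chain, was at 10.38, 9.94 and 10.73 in MPP and at 5.04, 9.04 and 4.71 in HSC (4.09 ± 1.25), a call (adjusted p = 0.0479) lost after quantile or loess normalisation (0.0663 each) and without any single array other than HSC replicate 2 (0.0971 to 0.165). Of these 18 genes, 9 lay under the lower quartile in MPP and 9 in HSC. The neutrophil granule gene Ngp was at 6.29, 7.04 and 5.03 in MPP and at 8.20, 11.01 and 7.84 in HSC (-2.89 ± 0.70), a call lost without MPP replicate 3 (adjusted p = 0.0811). The part that such cells or transcripts have in the differences above was not tested.

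The HSC arrays did not contribute evenly. List counts against HSC replicate 1 alone, given last below, stand against 2.42% higher and 1.86% lower among all genes in that comparison. The list sizes are those given above, so a few called members of a large list are no result about it. Among the 465 genes at least 2-fold higher in MPP, HSC replicate 1 was the HSC array nearest to the MPP mean in 212 (45.6%), beside 35.7% of all genes. Among the 390 at least 2-fold lower in MPP, HSC replicate 3 was the farthest in 214 (54.9%), beside 30.3% of all genes. Against HSC replicate 1 alone, 853 of the 855 genes kept their sign and 659 stayed at 2-fold or more the same way. Of the 2058 called genes, 725 stayed called in that smaller comparison and 1382 without HSC replicate 2. Of the lists above whose counts against HSC replicate 1 alone are not yet given, 6 chemokine and interleukin ligands were higher and 0 lower, 4 and 1 TNF genes, 3 and 0 Toll-like and interleukin-1 pathway genes, and 3 and 1 eicosanoid genes. The counts were 5 and 1 for G protein-coupled receptors, 3 and 1 for G protein subunits and RGS regulators, 2 and 3 for axon guidance genes, 4 and 0 for nuclear receptors, and 0 and 2 for repair genes. They were 5 and 0 for messenger RNA decay, 1 and 0 for splicing factors, 0 and 0 for tRNA synthetases and serine synthesis, 0 and 2 for fatty acid genes, and 1 and 1 for nucleotide genes. Solute carriers had 10 higher and 3 lower, ion channels 1 and 3, the aldehyde dehydrogenase list 3 and 5, sugar chain enzymes 3 and 4, and annexins and S100 proteins 3 and 1. Cytoskeleton genes had 7 and 5, adhesion genes 5 and 6, matrix genes 2 and 1, and complement, coagulation and serpin genes 3 and 1.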

How the data were processed

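Per the submitters' processing notes the authors summarised the arrays with RMA, of no stated version, and the deposited values are 1 linear intensity for each of 45101 probe sets. Which arrays shared a normalisation is not given in the sources used here. The values were turned into log2 of the deposited intensities, with no further scaling and no filter. By GEO's platform annotation 34945 probe sets had 1 symbol, 932 several and 9160 none, and 64 controls were left out. RefSeq (GRCm38.p6) held 34741 of the named ones.

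The MPP minus HSC contrast was fitted in R 4.3.3 with limma 3.58.1 (lmFit with a mean per group over all 12 arrays of 4 populations, eBayes, two-sided, Benjamini-Hochberg over 18193 genes). "Higher", "lower", "rose" and "fell" mean an adjusted p under 0.05. The labels do not tie replicates to separate animals, so p-values reflect only the spread of these arrays, whose number limits precision. Each gene has 1 spread, estimated within the 4 populations over all 12 arrays and moderated by eBayes. Standard errors and p-values therefore do not show where HSC arrays varied more than MPP arrays. Socs3, for example, had an SD of 0.12 in MPP and 0.70 in HSC beside a standard error of 0.26. Same-numbered MPP and HSC arrays deviated together at correlations of -0.0046, 0.16 and 0.07, so the numbers were not taken as pairs. The fit was tested on simulated data.

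The comparison, the 31 function lists and 13 lineage or quality lists were chosen with earlier results of these data known. Named genes are 4 markers, the 12 largest rises and 12 largest falls outside lineage lists (arrays not overlapping, both means at or above the lower quartile, no clone or model names), up to 2 rises and 2 falls per function list, up to 2 genes per lineage list, and sex-linked genes. A gene in 2 lists counts in both. The results of 1 function list and its genes are not reported here.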

Additional observations from a re-analysis of the deposited data

How the results depend on the processing

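Alternatives covered scaling, gene summary, the samples fitted and single arrays. The count of 2058 called genes lay between 1909 and 2435 with quantile or loess scaling, the mean of all probe sets, no cross-hybridising (_x_at) probe sets, the dimmest genes (below the quantile of 0.25) left out, 16 units added before log2, an intensity trend, or the 6 MPP and HSC arrays alone. The mean of all probe sets gave 543 genes at 2-fold or more and the added 16 units 545. Leaving out 1 array gave 1280 to 1835 called genes, 700 to 1104 higher, 580 to 744 lower and 781 to 895 at 2-fold or more. The lowest counts came without MPP replicate 3, and 771 genes were higher without MPP replicate 1 and 733 without HSC replicate 2. HSC replicate 1 as the lone HSC array, assumed to vary like the other groups, gave 779 called, 440 higher and 339 lower. Next brightest probe sets, which 9010 genes have, gave 686 called, 452 higher, 234 lower and 343 at 2-fold or more.

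With the replicate number as a block, 2476 genes were called, and the numbers do not show pairing. Of the named genes, Chac1 lost its call under the block (adjusted p = 0.058) and H1f2 gained one (0.0458).

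Direction reversed on the next brightest probe set for 12 of the named genes: Zfp763 (0.033), Eif2s3y (0.031), Il1r1 (-0.012), Lta4h (-1.06), Sema7a (0.0040), Plk2 (-0.25), Xrcc6 (-0.14), Zc3h12a (-0.28), Sel1l (0.085), Slc9a9 (-0.029), Kcnk5 (0.11) and Mgst1 (-0.24). The cause of these reversals was not tested. With HSC replicate 1 alone the direction reversed for Xist (-0.041) and Eif2s3y (0.082), genes in which that array nearly matched MPP. In both genes HSC replicates 2 and 3 had the levels of male cells. Under the other alternatives none of the 149 named genes reversed.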

Other observations

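Agreement between probe sets of one gene was partial. Of the 855 genes called at 2-fold or more, 504 had another probe set, which had the same sign in 408, was called with the same sign in 154 and was called with the opposite sign in 8. In 60 of the 855 the dimmer group mean was below that group's lower quartile.

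Of 617 measured X-linked genes, Xist among them, 28 were higher and 27 lower (4.38%) in MPP, with a median change of -0.05. Among all genes 6.38% were higher and 4.93% lower.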
